A study of Homo sapiens with 4 samples.

Results

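The proteasome is the large protease complex that degrades proteins marked with ubiquitin. Its genes were taken here as every gene symbol made of PSM, a letter from A to G and a number, which gave 48 of the 20457 features listed for each library. They fall into 8 alpha (PSMA) and 11 beta (PSMB) genes of the core particle, 6 ATPase genes (PSMC), 14 non-ATPase genes (PSMD), and 9 genes of activators, an inhibitor and assembly factors (PSME, PSMF and PSMG). The libraries came from HEK293, an established human embryonic kidney cell line of WT genotype, treated for 72 h with siRNA at 10 nM. In the 2 siControl libraries the siRNA was a negative control, and in the 2 siCNOT4 libraries it was directed against CNOT4, a ubiquitin ligase known as a partner of the CCR4-NOT complex, which shortens poly(A) tails. The study asked how CNOT4 takes part in the effect of codon usage on gene expression. No untreated cells were among the samples, the labels give no siRNA sequence, and they do not say whether the replicates were separate cultures, so p-values measure the spread between these libraries only.

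The core particle is a stack of rings, in which alpha subunits form the gate and some beta subunits carry the proteolytic sites. A regulatory particle caps it: a base, with a ring of ATPases, unfolds substrates, and a lid removes ubiquitin from them. When proteasome activity falls short, the transcription factor NFE2L1 is known to raise most of these genes together through antioxidant response elements in their promoters, and interferons are known to induce a separate set of beta subunits that form the immunoproteasome.

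Values were the authors' TPM, a transcript abundance that corrects for gene length and sums to the same total in every library. The targeted transcript, CNOT4, had 6.43 and 4.73 TPM in siControl replicates 1 and 2 and 3.38 and 3.81 TPM in siCNOT4 replicates 1 and 2. The groups did not overlap, but the log2 fold change of -0.51 (SE 0.26) gave a limma adjusted p of 0.184. After TMM scaling it was -0.95 with an adjusted p of 0.0359, which is past the threshold. Whole reads recovered from the TPM steps put CNOT4 at 449 and 375 reads against 225 and 250, a ratio of 0.65 on the TPM scale (95% interval 0.579 to 0.729, counting error only) and 0.521 per recovered read of the library (0.465 to 0.584). The recovered reads summed to at least 22785370 to 26361820 a library. Features above 0 numbered 17661 and 17531 in siControl and 18667 and 18629 in siCNOT4. Fold changes were computed on log2(TPM + 1) for the 14208 features with a mean of at least 1 TPM, and their median was 0.50, with 81.2% above 0. TMM scaling (a trimmed mean that sets most features to no change) moved that median to 0.0087 and quantile normalization moved it to 0.019, so fold changes are read against that median where it matters. The siControl replicates themselves differed by a median of 0.38 on the log2 scale. Of 8 markers of HEK293-like cells, KRT8 (303 and 360 against 311 and 345 TPM) and NEFL (384 and 346 against 336 and 307 TPM) were abundant, while PAX2 was at 1.10 to 1.91 TPM in every library. Their sum was 1574 to 1858 TPM in siControl and 1343 to 1346 TPM in siCNOT4, and 1 of the 7 tested fell (VIM, 917 and 650.1 against 369 and 354 TPM, adjusted p = 0.0288). Summed over 12 markers of other cell types, the level was 1.64 to 2.04 TPM in siControl and 6.31 to 8.11 TPM in siCNOT4, most of it COL1A1 (1.39 and 0.906 against 5.09 and 6.60 TPM). HBB was listed at 0 in every library. The part of these markers in the results was not tested.

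The 48 proteasome genes together took 1.02% and 1.15% of all TPM in siControl and 1.23% and 1.26% in siCNOT4. Of them, 43 passed the filter on low values. PSMA8, PSMB8, PSMB9, PSMB11 and PSMD5 did not. After CNOT4 siRNA, 6 of the 43 rose at a limma adjusted p under 0.05 (14.0%, against 11.3% of all tested features) and 0 fell (against 1.3%). The 6 were PSMD12, PSMC2, PSMD1, PSMB2, PSMG2 and PSMD6, which lie in 4 of the 5 classes. At an unadjusted p under 0.05 there were 15 members (34.9%), against 42.0% of features. The share that rose is near the background, so the count by itself does not set the proteasome genes apart.

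The direction of the whole group depended on the scale. As deposited, 33 of 43 members had a positive log2 fold change, their median was 0.27, and 11 lay above the median of all features. After TMM scaling 11 of 43 were positive, and after quantile normalization 31 of 43. The member median stood at the 33.5th percentile of all tested features. With TMM scaling 0 members rose (against 4.45% of features) and 0 fell (against 4.33%), and the lowest adjusted p among the members was 0.052, that of PSMD12. With quantile normalization 8 rose (18.6%, against 7.11%) and 1 fell (2.33%, against 8.23%). Both siCNOT4 libraries lay above both siControl libraries for 27 members (62.8%, against 66.4% of features) and below them for 4 (9.3%, against 10.6%), and 12 overlapped. Single libraries moved the count of risen members by more than 1.5 times. Without siControl replicate 1, 21 members rose (48.8%, against 70.9% of features) and 8 fell (18.6%, against 8.73%). Without siControl replicate 2, 28 rose (65.1%, against 47.2%) and 2 fell (4.65%, against 10.3%). Without siCNOT4 replicate 1 or replicate 2, only PSMD12 rose (against 3.09% and 2.91% of features) and 0 members fell (against 0.26% in each fit). All 6 risen members kept a positive fold change under every alternative that was run.

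**Figure D1:**
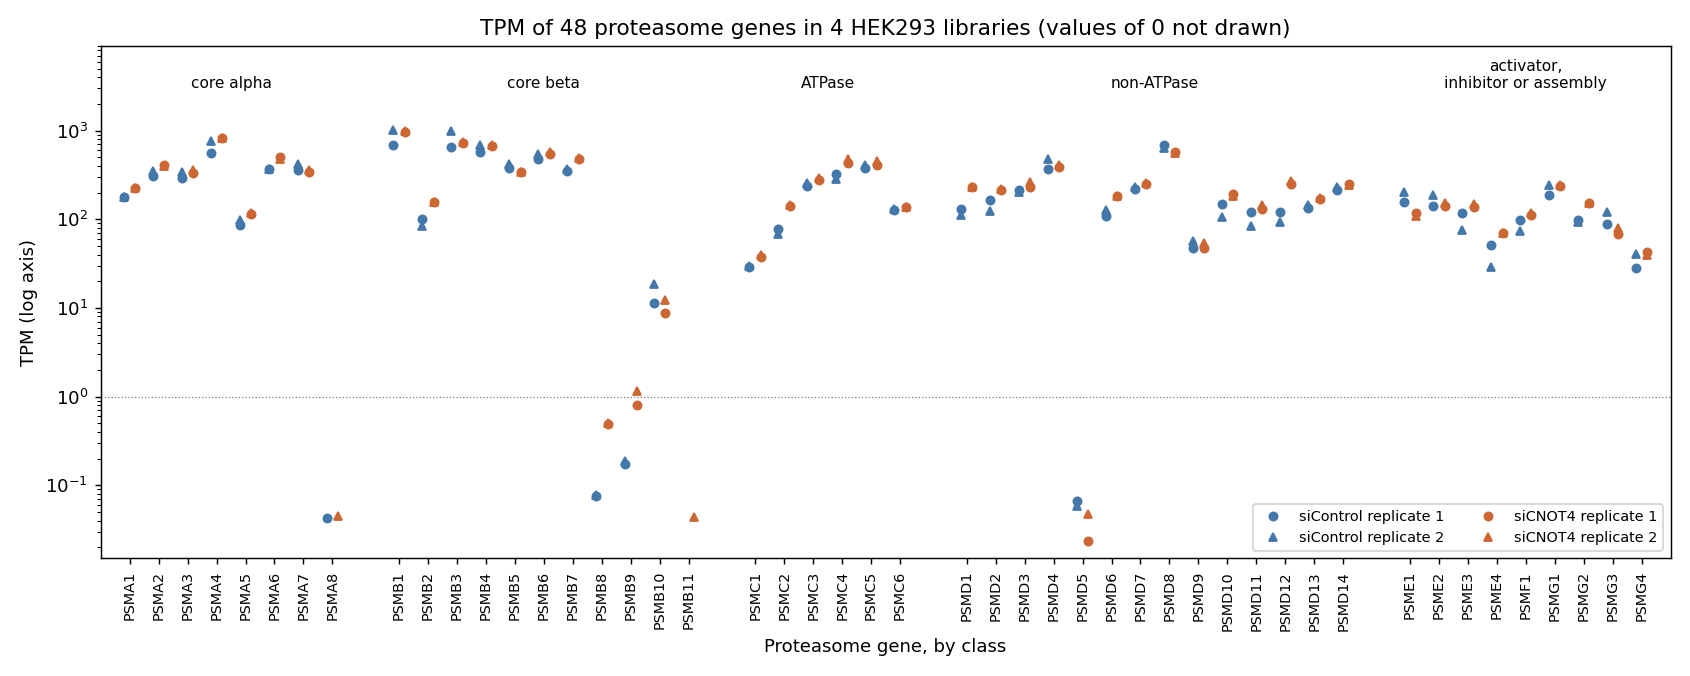
TPM (log axis) of the 48 proteasome genes by class, with siControl in blue and siCNOT4 in orange and a circle for replicate 1 and a triangle for replicate 2. Most subunits lie between 27.9 and 1007 TPM, PSMB8 and PSMB9 lie near or under 1 TPM (dotted line) with siCNOT4 above siControl, and PSMD5, PSMA8 and PSMB11 lie under 0.1 TPM.

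Among the alpha subunits of the core, which form the outer rings and the gate, 0 of 7 tested genes rose and 0 fell. Their median log2 fold change was 0.34, which is -0.16 relative to all features. PSMA6 had the highest value of the class: 372 and 364 TPM in siControl and 506 and 481 TPM in siCNOT4. The groups were apart, with a log2 fold change of 0.42 (SE 0.13, adjusted p = 0.0667), which TMM scaling turned to -0.13. PSMA7 had the lowest, with 355 and 416 TPM in siControl and 344 and 363 TPM in siCNOT4. Its groups overlapped, and the log2 fold change was -0.12 (SE 0.14, adjusted p = 0.52). PSMA4 was the most abundant alpha transcript in each library (555 and 758 against 831 and 831 TPM) and PSMA5 the least (87.1 and 98.3 against 115 and 119 TPM). Both siCNOT4 libraries were above both siControl libraries for PSMA1, PSMA2, PSMA4, PSMA5 and PSMA6, while PSMA3 overlapped.

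PSMA8, the testis form related to PSMA7, was close to absent. It was at 0.0422 TPM in siControl replicate 1 and 0.0448 TPM in siCNOT4 replicate 2, 1 recovered read each, and at 0 in the other libraries. A count of 0 allows up to 3 reads, which is 0.108 to 0.135 TPM for PSMA8 and PSMB11 if the smallest value is 1 read. PSMB11, the thymus form of the PSMB5 position, was at 0.0433 TPM in siCNOT4 replicate 2 and at 0 in the other 3 libraries.

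The 3 beta subunits that carry the proteolytic sites of the standard proteasome differed in the sign of their fold changes. PSMB5, which carries the chymotrypsin-like site, was at 377 and 419.6 TPM in siControl and 342 and 343 TPM in siCNOT4. Both siCNOT4 libraries were below, with a log2 fold change of -0.22 (SE 0.13, adjusted p = 0.243). PSMB6, the caspase-like subunit, was at 478 and 541 TPM against 541 and 579.7 TPM, the higher siControl value lying just under the lower siCNOT4 value (0.14, SE 0.13, adjusted p = 0.438, and -0.41 after TMM scaling). PSMB7, the trypsin-like subunit, was at 354 and 371 TPM against 480.2 and 488 TPM, with no overlap (0.42, SE 0.13, adjusted p = 0.0684, and -0.13 after TMM scaling). None of these 3 passed the test.

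Among the other standard beta subunits, PSMB2 was the gene that rose. It was at 100.0 and 84.8 TPM in siControl (92.4 ± 10.8, SD, n = 2) and 156 and 155 TPM in siCNOT4 (156 ± 0.718), a ratio of 1.68. Its log2 fold change was 0.75 (SE 0.16, adjusted p = 0.0434), 0.25 above the median of all features, and 0.21 after TMM scaling (adjusted p = 0.386). PSMB2 was the least abundant standard beta transcript in each library. PSMB1, the most abundant one, was at 687 and 1007 TPM in siControl, a spread that holds both siCNOT4 values (973 and 978 TPM). PSMB3 likewise was at 655 and 983 against 729 and 738 TPM. PSMB4 was at 578 and 685 against 675 and 695 TPM and overlapped. In 5 of the 8 tested beta genes the siControl replicates differed by more than the group means. The median for the class was 0.13, or -0.37 relative to all features.

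The inducible beta subunits, which replace the standard proteolytic ones in the immunoproteasome, were low on the TPM scale and did not share a direction. PSMB8 and PSMB9 were near or under 1 TPM. PSMB8, the counterpart of PSMB5, was at 0.0762 and 0.0767 TPM in siControl and 0.486 and 0.509 TPM in siCNOT4, from 14 and 16 against 85 and 88 recovered reads. PSMB9, the counterpart of PSMB6, was at 0.175 and 0.187 TPM against 0.813 and 1.17 TPM, from 19 and 23 against 84 and 120 reads. Both genes had higher values in each siCNOT4 library, by ratios of 6.50 (95% interval 4.40 to 9.93) and 5.48 (3.91 to 7.83) on the TPM scale, counting error only. Per recovered read of the library the ratios were 5.21 (3.52 to 7.96) for PSMB8 and 4.39 (3.14 to 6.28) for PSMB9. Without the filter on low values both rose, with limma adjusted p of 0.0441 for PSMB8 and 0.0497 for PSMB9. In that fit 5 of 48 members rose (10.4%, against 4.29% of 19734 features) and 0 fell (against 0.309%). PSMB8 and PSMB9 were joined there by PSMD12, PSMC2 and PSMD1.

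Other features of like TPM also had more signal in siCNOT4. Among 2630 features with a mean of 0.1 to 1 TPM and a value above 0 in siControl, the median ratio was 2.45, and 22.0% had a ratio of at least 5. The ratio of PSMB8 exceeded that of 84.7% of them, and the ratio of PSMB9 that of 80.3%. If the TPM of PSMB8 and PSMB9 is too low, these features are not of like level. Ranks against features of higher TPM were not computed. PSMB10, the counterpart of PSMB7 and the inducible subunit highest in TPM, went the other way in its means. It was at 11.3 and 18.7 TPM in siControl and 8.86 and 12.3 TPM in siCNOT4, and the groups overlapped (log2 fold change -0.44, SE 0.34, adjusted p = 0.344). Set against its standard counterpart within each library, PSMB8 was 0.0202% and 0.0183% of PSMB5 in siControl and 0.142% and 0.149% in siCNOT4. PSMB9 was 0.0366% and 0.0345% of PSMB6 against 0.150% and 0.203%, and PSMB10 was 3.19% and 5.02% of PSMB7 against 1.85% and 2.52%. The size of the PSMB8 and PSMB9 percents rests on the lengths used for TPM, but their change between the groups does not. A factor common to a whole library cancels in such ratios, but a rise shared by features of low level does not. All 3 ratios were apart between the groups, up for PSMB8 and PSMB9 and down for PSMB10. Among single tested features, 66.4% had both siCNOT4 values higher and 10.6% both lower, and the share for ratios was not computed.

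**Figure D2:**
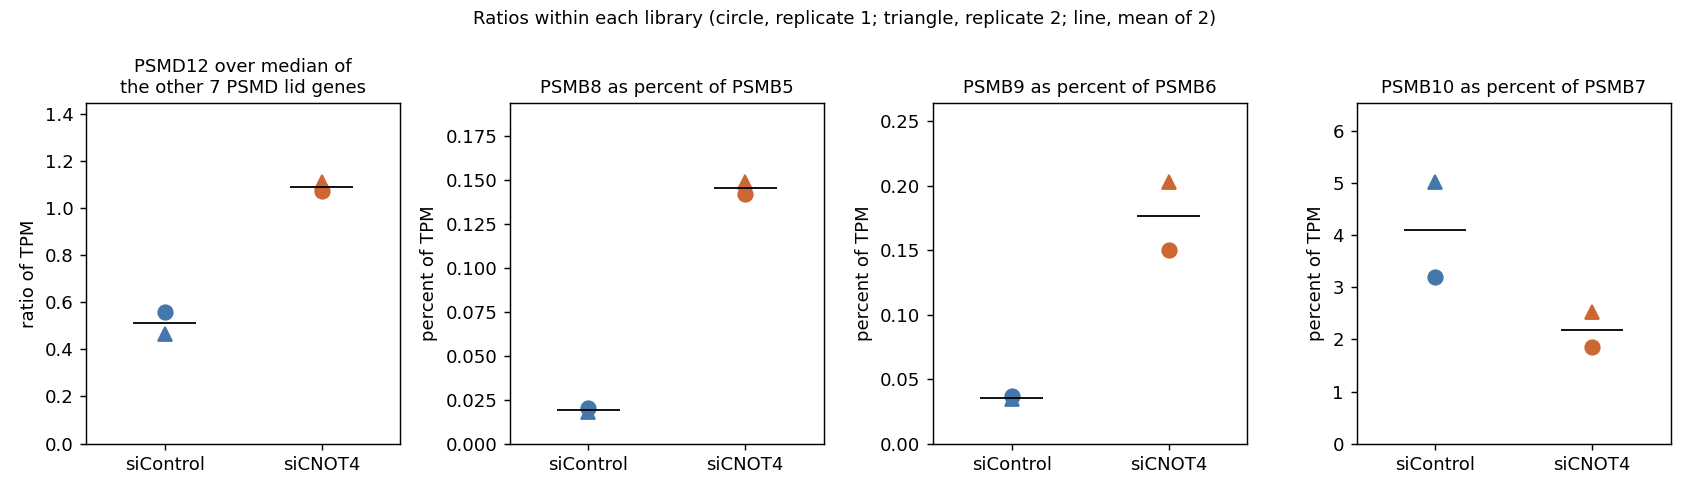
Ratios of TPM within each library, 1 point per library (circle, replicate 1; triangle, replicate 2) and a line at the mean of each group. PSMD12 over the median of the other 7 PSMD lid genes is 0.466 to 0.557 in siControl and 1.07 to 1.11 in siCNOT4, PSMB8 and PSMB9 are a larger percent of PSMB5 and PSMB6 in siCNOT4, and PSMB10 is a smaller percent of PSMB7.

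The ATPases of the base, the ring that unfolds substrates, had 1 of 6 genes that rose and 0 that fell, and all 6 had positive fold changes as deposited, against 2 of 6 after TMM scaling. PSMC2 was at 76.8 and 67.8 TPM in siControl (72.3 ± 6.35, SD, n = 2) and 140.2 and 145 TPM in siCNOT4 (142 ± 3.13), a ratio of 1.97. Its log2 fold change was 0.97 (SE 0.16, adjusted p = 0.0285), 0.47 above the median of all features, and 0.43 after TMM scaling (adjusted p = 0.133). PSMC4 just missed the threshold, with 325 and 282 TPM against 430 and 477 TPM (0.58, SE 0.14, adjusted p = 0.0508). PSMC6 was the lowest of the class: 128 and 131 TPM in siControl and 138 and 137 TPM in siCNOT4. That is a log2 fold change of 0.08 (SE 0.15, adjusted p = 0.697), which was -0.47 after TMM scaling. PSMC1 was the least abundant ATPase in every library (28.9 and 29.4 against 37.9 and 39.0 TPM), although the ring holds its subunits in equal number. PSMC5 was at 379 and 414 against 412 and 452 TPM and overlapped, and PSMC3 at 236 and 253 against 277 and 290.2 TPM.

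The non-ATPase genes held 3 of the 6 members that rose, out of 13 tested. PSMD12, a structural subunit of the lid, had the largest log2 fold change of all 43 tested members. It was at 119.8 and 94.2 TPM in siControl (107 ± 18.1, SD, n = 2) and 249 and 267 TPM in siCNOT4 (258 ± 12.7), a ratio of 2.41, from 2790 and 2489 against 5520 and 5849 recovered reads. The log2 fold change was 1.27 (SE 0.17, adjusted p = 0.0234), 0.77 above the median of all features. It remained 0.73 after TMM scaling (adjusted p = 0.052) and 1.09 after quantile normalization (adjusted p = 0.0221). After a trend on transcript length and GC content was removed it was 0.48 (adjusted p = 0.0705). Within each library, PSMD12 was 0.557 and 0.466 of the median of the other 7 PSMD lid genes in siControl, and 1.07 and 1.11 of it in siCNOT4. This ratio uses the same values as the fold change of PSMD12, the largest of the members, and is no separate evidence.

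PSMD1, the scaffold subunit of the base, was at 131 and 110.4 TPM in siControl (121 ± 14.9, SD, n = 2) and 229.6 and 229 TPM in siCNOT4 (229.5 ± 0.122), a ratio of 1.90. Its log2 fold change was 0.92 (SE 0.16, adjusted p = 0.0288) and 0.38 after TMM scaling (adjusted p = 0.163). PSMD6, a lid subunit, was at 108 and 126 TPM against 181 and 184 TPM (0.64, SE 0.16, adjusted p = 0.0494, and 0.09 with adjusted p = 0.812 after TMM scaling), and was the member that passed by the smallest margin. An antisense gene named PSMD6-AS2 is listed beside it at 0.484 and 0.587 against 1.11 and 1.54 TPM. Whether the counting used strand is not given in the sources used here, so reads of such pairs cannot be told apart. PSMD2, the other large base subunit, was at 165 and 124 against 216 and 218 TPM (0.60, SE 0.18, adjusted p = 0.0675). The ubiquitin receptor PSMD4 was at 369.5 and 476 against 389.8 and 408 TPM, within the siControl spread.

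The other lid genes did not pass the test. PSMD14, the deubiquitinase that cuts ubiquitin chains from substrates, was at 215 and 231 against 252 and 241 TPM (0.15, SE 0.14, adjusted p = 0.427). PSMD11 was at 120 and 83.2 against 131 and 144 TPM, PSMD13 at 135 and 144 against 171 and 172 TPM, PSMD3 at 216 and 202 against 232 and 261 TPM, and PSMD7 at 217 and 228 against 250.3 and 255 TPM. PSMD8, the most abundant non-ATPase transcript in each library, was the lowest of the class by fold change, at 683 and 639 TPM in siControl and 576 and 562 TPM in siCNOT4 (-0.22, SE 0.12, adjusted p = 0.216). Of the 8 lid genes, 7 had both siCNOT4 values higher (66.4% of features did) and PSMD8 had both lower (10.6% of features). The 11 standard non-ATPase transcripts lay closer together in siCNOT4 than in siControl. Their coefficient of variation (SD over mean across genes) lay within 0.752 to 0.790 for siControl and 0.446 to 0.470 for siCNOT4. The same measure over the 6 ATPase genes was 0.717 and 0.744 against 0.670 and 0.702, also lower in siCNOT4. Over the 14 standard core genes it was 0.496 and 0.620 against 0.534 and 0.529. PSMD8, far above the median of the non-ATPase genes in each library, weighs on their measure, which was not computed without it. No share of other gene sets that drew closer was computed.

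The 3 PSMD genes that encode assembly chaperones of the base are not parts of the finished particle. PSMD10 was at 147 and 105 against 193 and 183 TPM (0.59, SE 0.20, adjusted p = 0.0829), and PSMD9 at 47.5 and 56.4 against 47.6 and 54.1 TPM. PSMD5 was listed at only 0.0665 and 0.0586 TPM in siControl and 0.0233 and 0.0471 TPM in siCNOT4, from 3, 3, 1 and 2 recovered reads. Its neighbours on the chromosome were expressed, FBXW2 at 19.5 and 12.3 against 24.0 and 24.8 TPM and PHF19 at 18.8 and 11.3 against 16.6 and 18.0 TPM. The antisense feature that lies at PSMD5, LOC253039, was listed at 0 in every library. How the annotation of the authors treats this locus is not given in the sources used here, and no fold is read from so few reads.

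**Figure D3:**
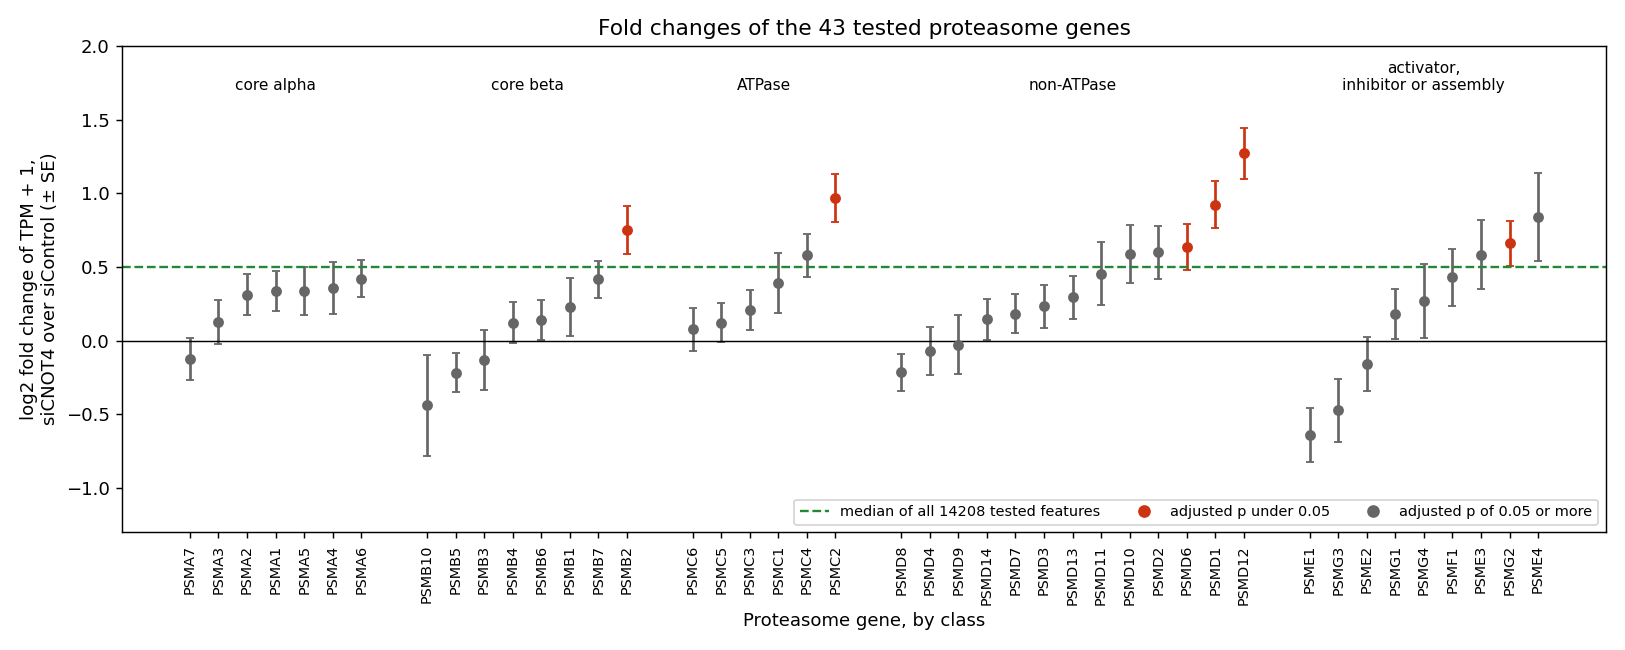
Log2 fold change of TPM + 1, siCNOT4 over siControl, with its SE for the 43 tested proteasome genes, ordered within each class. Red points have an adjusted p under 0.05 (6 genes), grey points do not, and the dashed green line is the median of all 14208 tested features, 0.50, above which 11 members lie.

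The activators that can replace the regulatory particle differed in direction. PSME1 and PSME2, the interferon-inducible pair that forms a mixed ring, both had lower means in siCNOT4. PSME1 was at 156 and 204 TPM in siControl (179.9 ± 33.5, SD, n = 2) and 118 and 110 TPM in siCNOT4 (114 ± 5.98). This was the lowest log2 fold change of all tested members, -0.64 (SE 0.18, adjusted p = 0.0621), or -1.14 relative to all features, and it stayed negative after TMM scaling (-1.18) and quantile normalization (-0.84). PSME2 was at 142 and 187 against 139.7 and 152 TPM and overlapped (-0.16, SE 0.19, adjusted p = 0.518). The ratio of PSME1 to its partner PSME2 was 1.10 and 1.09 with the control siRNA and 0.848 and 0.723 with CNOT4 siRNA, with no overlap. It uses the same values as the fold change of PSME1, and the share of such ratios that do not overlap was not computed.

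PSME3, the nuclear relative of that pair, was at 118 and 76.3 TPM in siControl and 138 and 147 TPM in siCNOT4 (0.58, SE 0.23, adjusted p = 0.112). PSME4, the large nuclear activator, was at 51.8 and 28.6 against 69.5 and 69.8 TPM (0.84, SE 0.30, adjusted p = 0.0901). Its siControl replicates differed by 0.84 on the log2 scale, as much as the groups did. PSMF1, which was described as an inhibitor of the core, was at 99.0 and 74.2 against 113 and 118 TPM (0.43, SE 0.19, adjusted p = 0.142, and -0.11 after TMM scaling).

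Of the PSMG genes, whose products are chaperones that build the alpha ring, 1 of 4 rose. PSMG2 was at 99.1 and 92.7 TPM in siControl (95.9 ± 4.52, SD, n = 2) and 153 and 151 TPM in siCNOT4 (152 ± 1.20), a ratio of 1.59 (log2 fold change 0.66, SE 0.15, adjusted p = 0.0453, and 0.12 with adjusted p = 0.666 after TMM scaling). Its partner in the same dimer, PSMG1, was at 189 and 242 against 239 and 246 TPM and overlapped (0.18, SE 0.17, adjusted p = 0.423, and -0.37 after TMM scaling). The other dimer is PSMG3 with PSMG4. PSMG3 was at 87.3 and 121 TPM in siControl and 68.2 and 79.7 TPM in siCNOT4, below in both libraries (-0.47, SE 0.22, adjusted p = 0.143). PSMG4 was at 27.9 and 40.8 against 42.5 and 39.4 TPM and overlapped (0.27, SE 0.25, adjusted p = 0.417, and -0.27 after TMM scaling). The antisense gene PSMG3-AS1 was at 2.05 and 1.48 against 6.99 and 8.27 TPM and rose (1.65, SE 0.25, adjusted p = 0.0255).

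Set side by side, the class medians differed little from each other. Relative to the median of all features they were -0.16 for core alpha, -0.37 for core beta, -0.20 for ATPase, -0.21 for non-ATPase and -0.23 for activators, inhibitor and assembly factors. All 5 were above 0 after quantile normalization, at 0.18, 0.22, 0.11, 0.10 and 0.04. Without siControl replicate 1 the 5 medians ran from -0.73 to -0.43, and without siControl replicate 2 from -0.07 to 0.11. The balance between particles was measured within each library. The ATPase median was 0.501 and 0.489 of the median of the 14 standard core genes in siControl and 0.469 and 0.492 in siCNOT4. For the standard non-ATPase genes this ratio was 0.453 and 0.367 against 0.521 and 0.546, with both siCNOT4 values higher. By genes, 14 of the 17 standard regulatory particle members had both siCNOT4 values higher and 4 rose, and 8 of the 14 standard core members had both higher and 1 rose. Among all features 66.4% had both higher and 11.3% rose. The difference between these counts was not tested.

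Transcript length moved with the fold changes. Proteasome transcripts were short, with a median of 1591 nt for the 43 tested members against 3330 nt for 13073 tested features with a length in GENCODE 29, and they ran from 773 nt (PSMB3) to 7099 nt (PSME4). Across the 43 members, Spearman's rho between length and log2 fold change was 0.58, and between length and the difference of the 2 siControl replicates it was 0.54. Across the 13073 features, rho between length and fold change was 0.38. Length was taken from the longest protein-coding transcript, or else the longest one, which need not be the form expressed. The members share the same 4 libraries, and the fold change and the replicate difference share the siControl libraries. Of the risen members, PSMD12, PSMC2, PSMD1 and PSMB2 are among the long ones in GENCODE 29. The other risen members, PSMD6 (1495 nt) and PSMG2 (1686 nt), lie near the member median. Members long in GENCODE 29 that did not rise include PSME4 (7099 nt), PSMG4 (4603 nt) and PSMC1 (4448 nt). Some members may be shorter in the deposited TPM, as their recovered reads were few per TPM. In siControl replicate 1 these were PSMG4 (377 reads at 27.9 TPM), PSMC1 (593 at 28.9) and the risen PSMD12 (2790 at 119.8). PSMB2 (4217 nt) had 6281 reads at 100.0 TPM. After removal of a trend on length and GC content, 1 member rose (PSMG2; 2.33%, against 12.0% of features), 3 fell (PSMB5, PSME1 and PSMG3; 6.98%, against 13.3%), and 16 of 43 were positive. The part of length in the group difference was not tested beyond this.

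**Figure D4:**
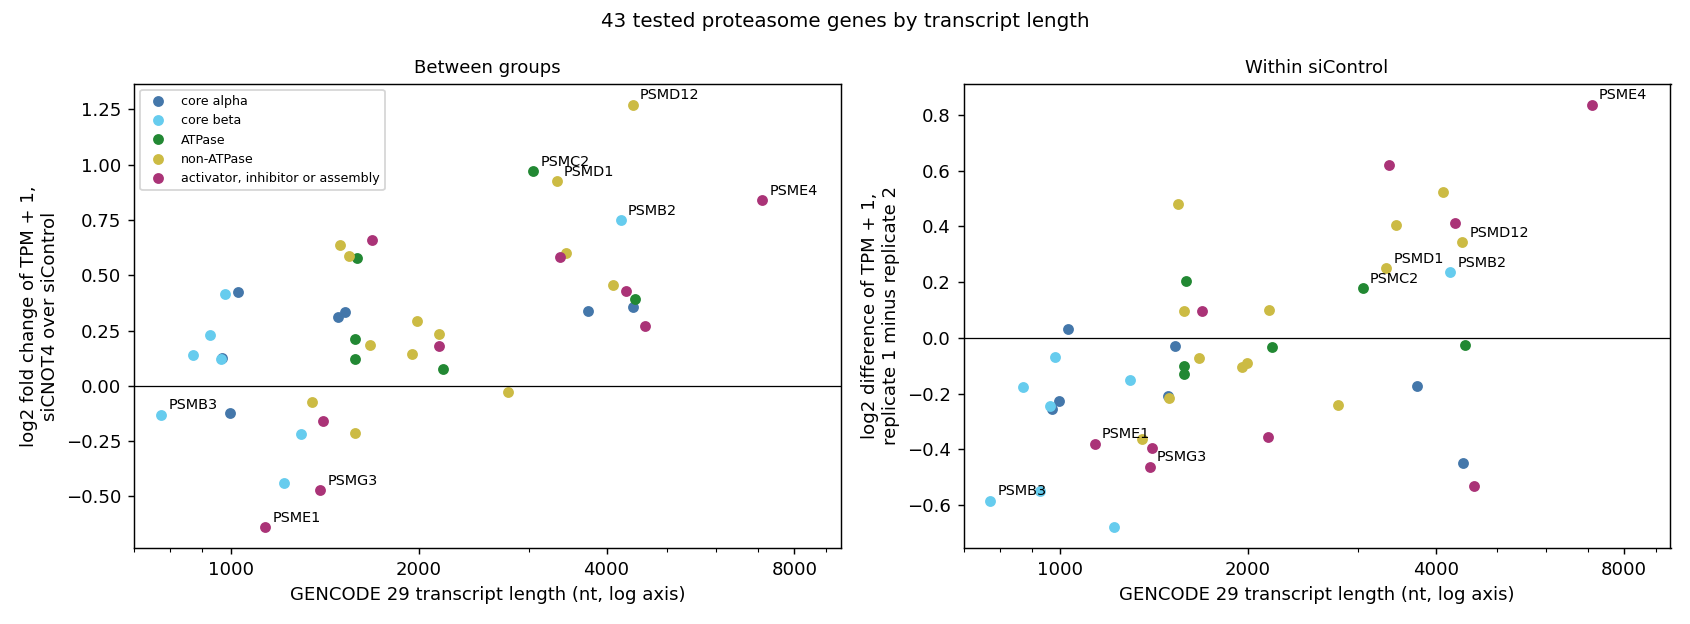
Log2 fold change between groups (left) and log2 difference between the siControl replicates (right) against transcript length (log axis) for the 43 tested proteasome genes, coloured by class. In both panels longer transcripts tend to lie higher (Spearman's rho 0.58 and 0.54). The short PSMB3 and PSME1 lie low, and the long PSME4 and PSMD12 lie high. Some long ones depart from this, such as PSMG4 (4603 nt), at 0.27 on the left and -0.53 on the right.

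RefSeq promoter windows (250 bases before to 50 after each start, GRCh38.p14) were found for 42 of the 48 members. The core letters of the antioxidant response element, TGACNNNGC on either strand, occurred in a window of 15 of the 42 (35.7%), against 16.1% of 27305 genes. Here and for the interferon element below, a gene counted if any of its windows matched. The background was every gene with a window, not matched for expression or number of windows. Of the 6 members that rose, PSMD12, PSMD1 and PSMG2 held it. The 13 tested members with the core had a median log2 fold change of 0.23 and the 24 without it a median of 0.32, with 3 risen members in each set. The windows of 2 risen members and of PSMD5 are shown as examples, with the core in capitals and 25 bases on either side, in the direction of the gene. They lie at chr17:67366709-67366767 (minus strand) for PSMD12, chr18:12658674-12658732 (plus strand) for PSMG2 and chr9:120843023-120843081 (minus strand) for PSMD5.
PSMD12: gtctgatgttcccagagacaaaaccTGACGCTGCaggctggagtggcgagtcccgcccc
PSMG2: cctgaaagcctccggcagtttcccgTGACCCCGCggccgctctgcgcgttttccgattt
PSMD5: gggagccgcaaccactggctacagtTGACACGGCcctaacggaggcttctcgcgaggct
A match gives only the letters and does not show a site in use.

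The core of the interferon-stimulated response element, GAAANNGAAA on either strand, occurred in 7 of the 42 members (16.7%), against 4.4% of genes. The 7 were PSMA4, PSMB4, PSMB8, PSMB10, PSME1, PSME2 and PSMG4, and none of them rose or fell in the fit with the filter, which did not test PSMB8. The members of the interferon-inducible set are shown where the match lies before the start: PSMB10 at chr16:67936851-67936896 and PSME2 at chr14:24146611-24146663, both on the minus strand, with the core in capitals.
PSMB10: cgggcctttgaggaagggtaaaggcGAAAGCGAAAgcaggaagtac
PSME2: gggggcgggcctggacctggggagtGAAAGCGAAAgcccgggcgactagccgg
Both carry the same letters in the core, and so does PSMG4, which is outside the interferon-inducible set.

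Genes that work with the proteasome were read from lists with other symbols. Counts in these lists and in the complexes that follow are to be read against the 11.3% of all features that rose and the 1.3% that fell. Of 12 further parts and partners of the 26S particle, 1 rose and 0 fell, with a median of -0.14 relative to all features. The gene that rose was POMP, the maturation factor of the core, at 97.6 and 132 TPM in siControl and 201 and 209 TPM in siCNOT4 (0.85, SE 0.19, adjusted p = 0.0439, and 0.30 with adjusted p = 0.5 after TMM scaling). SHFM1, the small lid subunit also called SEM1, was at 403 and 579.9 against 419.6 and 445 TPM and overlapped. Of 8 peptidases that act after the proteasome, 0 rose and 0 fell (relative median -0.20), from TPP2 at 0.57 to THOP1 at -0.08. Of 11 ubiquitin genes, E1 enzymes and shuttle receptors, 0 rose and 0 fell (relative median -0.41). Their highest log2 fold change was 1.22 (UBA6) and their lowest -0.78 (RPS27A, which encodes ubiquitin fused to a ribosomal protein).

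Genes of the NFE2L1 axis were mostly higher in both siCNOT4 libraries. The list mixes factors of proteasome gene transcription with genes that act on the NFE2L1 protein. Its direction therefore does not give that of NFE2L1 activity, which was not measured. Of 16 genes of the NFE2L1 axis, 15 had both siCNOT4 values higher (66.4% of features did), 3 rose and 0 fell, and the relative median was 0.21. NFE2L1 itself was at 143 and 83.5 TPM in siControl and 136 and 142 TPM in siCNOT4 and overlapped (0.34, SE 0.27, adjusted p = 0.338). MAFG, a small partner of NFE2L1 on DNA, was at 17.4 and 9.54 against 33.1 and 37.0 TPM (1.37, SE 0.33, adjusted p = 0.0477). BTRC and NPLOC4 rose by 1.28 (adjusted p = 0.0445) and 0.86 (adjusted p = 0.0454). After TMM scaling none of these 3 passed: MAFG was at 0.85 (adjusted p = 0.0532), BTRC at 0.76 (0.0508) and NPLOC4 at 0.31 (0.183). The siControl replicates differed over this list by a median of 0.61, and 11 of 16 were positive after TMM scaling. Of 8 antigen processing partners of the immunoproteasome, 2 rose and 0 fell (relative median 0.16). They were ERAP2, a peptide-trimming peptidase (15.6 and 11.8 against 35.1 and 32.1 TPM, 1.25, adjusted p = 0.0396), and NLRC5, an activator of MHC class I genes (1.21 and 0.627 against 2.96 and 3.34 TPM, 1.13, adjusted p = 0.0379). After TMM scaling ERAP2 had an adjusted p of 0.0493 and NLRC5 one of 0.0506. TAP1, whose gene adjoins PSMB9, was at 3.33 and 3.11 against 4.30 and 4.76 TPM (0.39, SE 0.23, adjusted p = 0.233).

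Other large complexes gave a point of comparison. In the COP9 signalosome, a relative of the lid, 1 of 9 genes rose (COPS4, 0.91, adjusted p = 0.0411, and 0.37 with adjusted p = 0.136 after TMM scaling) and 0 fell, with a relative median of -0.13. In eIF3, the other relative of the lid, 0 of 13 rose and 0 fell, with a relative median of -0.49. In the CCT chaperonin 0 of 8 rose and 1 fell, with a relative median of -0.37. The gene that fell was CCT3, at 855 and 780.1 TPM in siControl and 412 and 405 TPM in siCNOT4 (a ratio of 0.50, adjusted p = 0.0227). The proteasome's relative median of -0.23 lay between those of the COP9 signalosome and the CCT chaperonin, and no difference between the complexes was tested.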

How the data were processed

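Poly(A) RNA libraries were prepared with a stranded kit, per the labels' protocols. The submitters' processing notes name FastQC 0.11.2, STAR 2.5.3a, featureCounts and the build hg19. The annotation, the strand setting and the treatment of reads that map to several places are not given in the sources used here, and several subunits have near-identical pseudogenes. The authors deposited 1 table of TPM per library, which sums to 1000000, with no counts.

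Genes were tested with limma 3.58.1 in R 4.3.3 (eBayes with a trend) on log2(TPM + 1), for features with a mean of at least 1 TPM over the 4 libraries, with Benjamini-Hochberg adjustment over all 14208 and a threshold of 0.05. The code was tested on simulated data. TPM steps gave whole reads for 99.9% of 18557 features above 0 in at least 2 libraries (tolerance 0.001 reads). These reads are the smallest whole numbers that fit, so totals are lower bounds. A limma voom fit on them was added after seeing the data. It called 1908 features in either direction, and 3 members higher and 0 lower. Other alternatives were a pseudocount of 0.1, no filter, a minimum of 5 TPM, TMM scaling, quantile normalization, removal of a length and GC trend, a replicate block, and each library left out. Intervals are exact and cover counting error only.

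The members and lists were chosen with earlier results of these data known. Named with all values were members past the threshold, the subunits with proteolytic sites, the inducible and tissue-specific ones, all PSME, PSMF and PSMG genes and the highest and lowest fold change per class. From the other lists, those past the threshold were named, or else the highest and the lowest. Further genes, among them the remaining subunits, TAP1, the neighbours of PSMD5 and the antisense genes, were named after their values were seen.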

Additional observations from a re-analysis of the deposited data

How the results depend on the processing

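The count of features past the threshold, 1792 as reported, was 558 with a pseudocount of 0.1, 908 with no filter, 147 with a minimum of 5 TPM and 3310 with the length and GC trend removed, and it ran from 450 to 11311 with 1 library left out. Members higher, 6 as reported, numbered 3 with a pseudocount of 0.1, 1 with a minimum of 5 TPM, 0 with TMM scaling, 1 with the trend removed and 3 with voom, and ran from 1 to 28 with 1 library left out. Members lower, 0 as reported, numbered 1 after quantile normalization and 3 with the trend removed, and ran from 0 to 8 with 1 library left out. The relative class median was 0.22 for core beta and 0.10 for non-ATPase genes after quantile normalization. With 1 library left out, the medians ran from -0.50 to 0.11 (core alpha), -0.73 to -0.06 (core beta), -0.44 to 0.04 (ATPase), -0.43 to -0.07 (non-ATPase) and -0.70 to -0.02 (activators, inhibitor and assembly). The cause was not tested. Leaving out a library leaves a group with 1 sample, which is then assumed to vary like the other group.

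Of the 43 tested members, TMM scaling reversed the sign of 22, the trend removal of 17, voom of 14 and quantile normalization of 4. Among the 22 members named with all values, TMM scaling reversed PSMB6 (-0.41), PSMB7 (-0.13), PSMF1 (-0.11), PSMG1 (-0.37), PSMG4 (-0.27), PSMA6 (-0.13) and PSMC6 (-0.47). Quantile normalization reversed PSMG4 (-0.15) and PSMC6 (-0.16). Removing the trend reversed PSME4 (-0.0001), PSMF1 (-0.14), PSMG1 (-0.20), PSMG4 (-0.28) and PSMC6 (-0.54). The voom fit reversed PSMB6 (-0.18), PSMG1 (-0.13), PSMG4 (-0.04) and PSMC6 (-0.24), and leaving out siControl replicate 2 reversed PSME2 (0.04, against -0.36 without siControl replicate 1). Of 264 values for 22 members, 179 kept their direction and side of the threshold, 37 lost the threshold, 29 gained it and 19 reversed. With a replicate block 3655 of 14208 features passed in either direction, with 10 of the 43 members higher and 1 lower (PSME1). Shares of all features by direction were not computed for this fit, so the member counts are not read as a result. The groups share the numbers 1 and 2, but the labels do not say that a number marks a shared culture, and the replicate differences of the groups correlated at 0.171, so the pairing is not established.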
